A study of Mus musculus with 12 samples.

Results

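The 8 genes described here encode actin isoforms and proteins that build or anchor actin filaments: the striated muscle actins Acta1 and Actc1, the cytoplasmic actins Actb and Actg1, the alpha-actinins Actn1 and Actn4, and the filament-elongating proteins Enah and Vasp. They were chosen by name, with earlier results of these data known. All 8 were matched by symbol to the Ensembl identifiers of the count files, among 54146 gene records. Shares of the 8 set beside those of all genes are therefore descriptive. Polyadenylated RNA of mouse hearts was sequenced in 12 libraries, 4 in each of 3 groups. Mice labelled NRON WT had sham surgery (Sham WT) or transverse aortic constriction (TAC WT), and mice labelled NRON KO had the constriction (TAC KO), and hearts were taken 6 weeks after surgery in every group. Transverse aortic constriction ties a narrowing around the aortic arch, so that the left ventricle pumps against a raised pressure. Nron is a long noncoding RNA, and how it was deleted, the strain, age and sex of the mice and the part of the heart sampled are not given in the sources used here. Knockout hearts after sham surgery were not analysed here, so the effect of the knockout without constriction cannot be told apart from its effect after it. The labels do not say that the libraries of a group came from separate animals, and p-values then measure only the spread between these samples, which may be technical.

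Actin polymerises from monomers into the thin filaments of the sarcomere and into the cortical and junctional filaments of every cell. The heart of a newborn mouse expresses skeletal actin beside cardiac actin, the adult ventricle expresses mainly cardiac actin, and renewed expression of the skeletal isoform is a widely used marker of hypertrophy. Alpha-actinins crosslink filaments and tie them to adhesion sites, and the Ena/VASP proteins bind growing filament ends and slow their capping.

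Promoter sequences are shown for the 4 genes whose levels or sequences the results turn on. RefSeq promoters of GRCm38.p6 were matched for 7 of the 8 genes, all but Actb. The stretch printed starts 150 bases before the RefSeq start of transcription and ends at the last base outside any annotated exon, read 5′ to 3′ on the minus strand on which all 8 genes lie. In Acta1, Actc1 and Actg1 the capitals mark a CArG box, the site that serum response factor (SRF) binds and that is known from many actin genes. In Enah they mark GGGCGG on either strand, a GC box, since no CArG box was found there.
Acta1, chr8:123894776-123894925: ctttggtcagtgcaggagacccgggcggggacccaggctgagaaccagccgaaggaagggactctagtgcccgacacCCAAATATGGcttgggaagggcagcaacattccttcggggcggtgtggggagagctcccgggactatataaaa
Actc1, chr2:114052888-114053025: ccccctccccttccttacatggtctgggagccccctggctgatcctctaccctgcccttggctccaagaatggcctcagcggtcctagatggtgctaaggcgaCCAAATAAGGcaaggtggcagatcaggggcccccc
Actg1, chr11:120348543-120348645: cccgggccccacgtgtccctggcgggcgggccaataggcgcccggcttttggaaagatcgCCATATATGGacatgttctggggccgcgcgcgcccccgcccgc
Enah, chr1:182019991-182020130: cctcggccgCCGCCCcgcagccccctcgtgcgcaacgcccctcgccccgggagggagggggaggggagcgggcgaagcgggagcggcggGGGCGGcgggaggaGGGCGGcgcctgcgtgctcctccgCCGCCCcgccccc
The Actc1 stretch lies directly before the first exon of the main transcript and inside an intron of a longer one. A CArG box stood 73 to 64 bases before the start in Acta1, 47 to 38 bases before it in Actc1 and 90 to 81 bases before it in Actg1. Over the whole 250 bases before the start and both strands, 3 of 7 of these genes held a CArG box, against 482 of 32851 RefSeq promoters (1.47%). The other motifs searched were GGGCGG (5 of 7 genes, 32.7% of all promoters), GGAAA (3 of 7, 55.6%), CCAAT (3 of 7, 33.8%), CATTCC (2 of 7, 12.6%), TATAAA (1 of 7, 12.4%) and the MEF2 site (0 of 7, 1.69%). CATTCC and GGAAA are short enough to overlap other sites, and a match describes these letters only.

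Libraries held 26288519 to 35945770 counts. The 8 genes together took 1.15 to 1.61% of the counts of a library in Sham WT, 1.97 to 2.57% in TAC WT, then 1.66 to 1.82% in TAC KO. No count fell on either of the 2 records of Nron in any of the 12 libraries, so the labelled genotype was not checked by its target. The cardiomyocyte genes Myh6 and Tnnt2 were abundant in every library, at no less than 22690 and 7810 counts-per-million (CPM). The sum of 7 atrial genes was 359 to 567 CPM in Sham WT, 2844 to 4807 CPM in TAC WT, then 1007 to 1304 CPM in TAC KO, nearly all of it Nppa, a gene that ventricles under load also express. The other 6 summed to 32.73 to 36.04, 21.1 to 24.9 and 21.4 to 26.9 CPM, with Sln and Bmp10 at or near 0. Of the 4 atrial genes tested, Nppa and Dkk3 rose and Tbx5 fell in TAC WT versus Sham WT. Levels are given below as CPM, scaled between libraries by the trimmed mean of M values (TMM). Differences come from edgeR's quasi-likelihood test in 1 fit of all 12 libraries, as log2 fold changes with their standard error (SE). The SE was derived from the test, as the absolute log2 fold change divided by the square root of the F statistic. A gene is called changed, and is said to have risen or fallen, where its Benjamini-Hochberg adjusted p over 15477 tested genes is under 0.05. All 8 genes passed the filter on low counts, with 962 to 509876 counts in a library. RNA came from whole tissue, so fewer cells of a type and less RNA per cell cannot be told apart.

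TAC WT was first set against Sham WT, which asked what pressure overload did to these genes in wild-type hearts. Acta1, Enah, Actn1, Actg1 and Actn4 rose, and the log2 fold changes of all 8 genes were above 0. Acta1 rose 15.0-fold and Enah 2.81-fold, while the other changes were between 1.18-fold and 1.44-fold. Thus 5 of 8 genes rose, where 9.67% of all tested genes were called higher and 19.7% were called in either direction. The same 5 genes had CPM ranges that did not overlap between the groups, as for 24.7% of all tested genes. The median log2 fold change of the 8 genes was 0.35, against -0.0004 over all tested genes.

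TAC KO was then set against TAC WT, which asked how hearts labelled NRON KO differed after the same labelled surgery. The load on each heart was not examined here, so a difference in load between the 2 groups was not tested. Enah, Acta1, Actn4, Actb and Actg1 fell, and the log2 fold changes of all 8 genes were below 0. Acta1 and Enah were 2.04-fold and 2.06-fold lower, and Actn4, Actb and Actg1 were 1.17-fold to 1.31-fold lower. The 5 genes of 8 that fell stand beside 17.3% of all tested genes called lower and 33.0% called in either direction. The CPM ranges did not overlap for 3 of the 8, Acta1, Actn4 and Enah, as for 28.5% of all tested genes. The median log2 fold change of the 8 genes was -0.32, against -0.002 over all tested genes. The TAC WT libraries enter both this comparison and the one with Sham WT, so the values of the 2 comparisons are given side by side and no relation between them was tested.

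**Figure D1:**
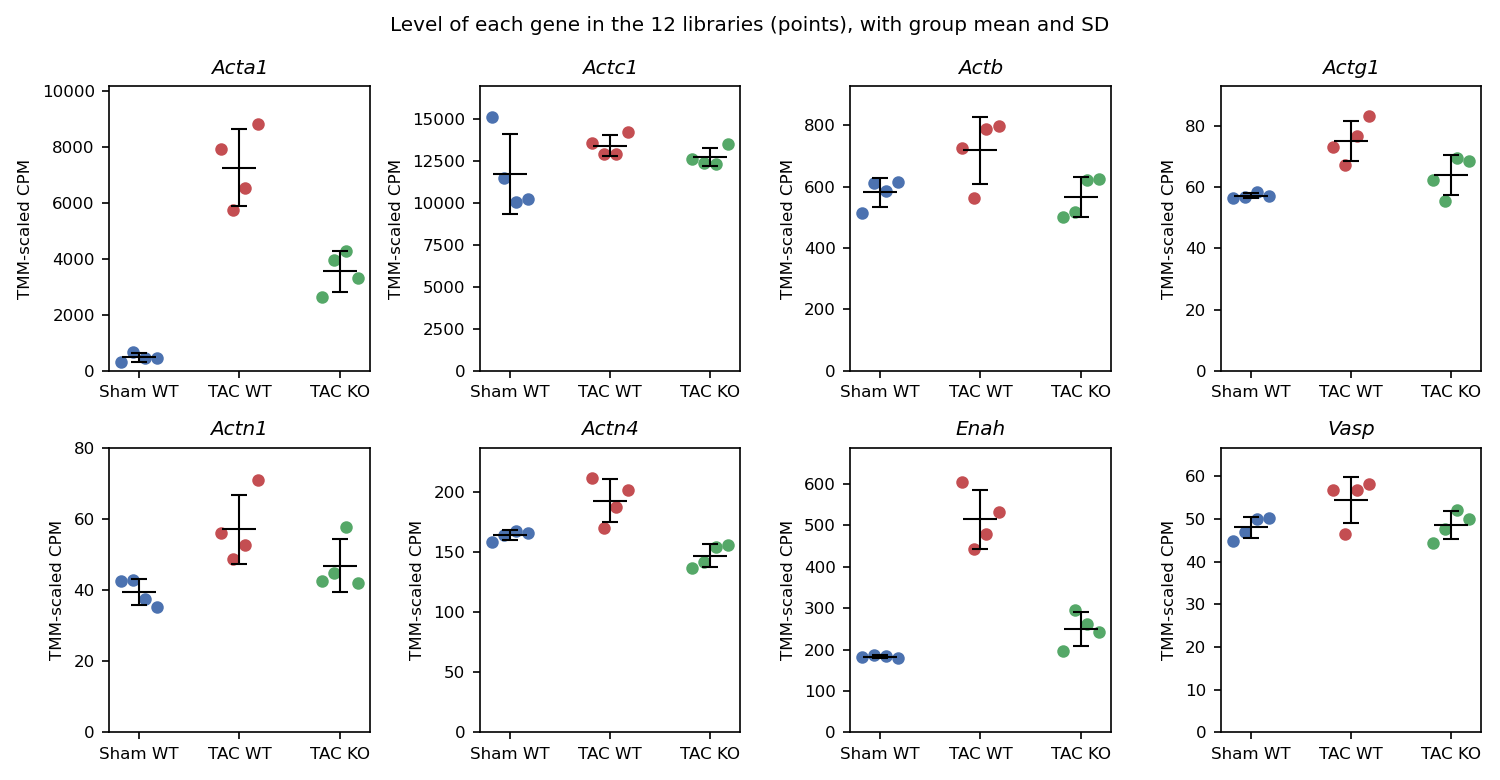
Level of each of the 8 genes in TMM-scaled CPM (vertical axes, starting at 0) in the 4 libraries of Sham WT, TAC WT and TAC KO (points), with the group mean and SD (black bars). For Acta1 the 3 groups do not overlap, and for Enah every TAC WT library lies above 442 CPM while every other library lies under 296 CPM.

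**Figure D2:**
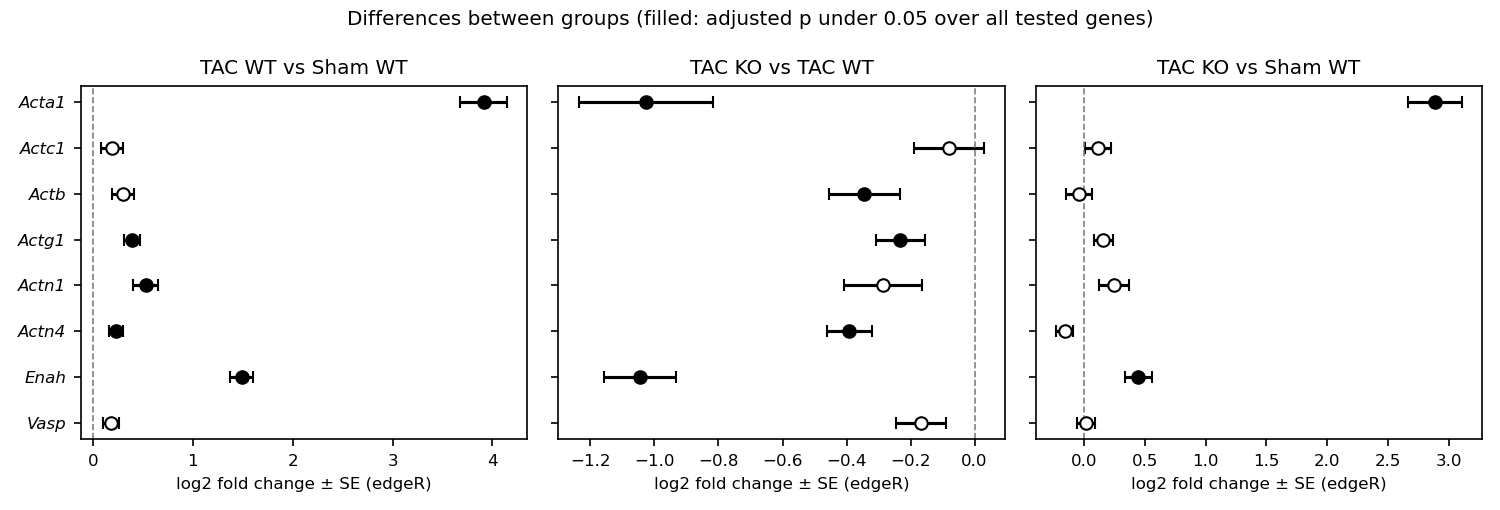
Log2 fold change of each gene from the edgeR fit (points) with its SE (bars) in the 3 comparisons. Filled points have an adjusted p under 0.05 over all 15477 tested genes: 5 genes on the higher side in TAC WT versus Sham WT, 5 on the lower side in TAC KO versus TAC WT, and 2 on the higher side in TAC KO versus Sham WT.

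Acta1 encodes the alpha-actin of skeletal muscle (ENSMUSG00000031972.5, chromosome 8 from 123891769 to 123894751 of GRCm38, 7 exons in its longest transcript). Its level was 312, 693, 465 and 461 CPM in the 4 Sham WT libraries, 7917, 5759, 6531 and 8830 CPM in TAC WT, then 2653, 3969, 4297 and 3326 CPM in TAC KO. Every TAC WT library lay above every TAC KO library, and every TAC KO library lay above every Sham WT library. The log2 fold change was 3.91 in TAC WT versus Sham WT (SE 0.23, edgeR adjusted p = 3.822e-07), the 11th of 15477 by size and the 3rd by p. Acta1 was at -1.03 in TAC KO versus TAC WT (SE 0.21, edgeR adjusted p = 0.00231) and 2.88 in TAC KO versus Sham WT (SE 0.22, edgeR adjusted p = 2.949e-06). Within Sham WT the coefficient of variation of Acta1 was 32.6%, the widest of any gene of the 8 in any group. Sham WT 1 was the lowest of the group and Sham WT 2 the highest.

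Skeletal muscle itself expresses Acta1, and 1 library stood apart in the summed level of fast skeletal muscle genes. A sum of 10 such genes other than Acta1 and Myl1 was 24.8 CPM in TAC WT 4, against 2.86 to 4.16 CPM in the other 11 libraries. Myh4, a fast skeletal myosin, had 210 counts (7.72 CPM) in TAC WT 4 and at most 7 counts elsewhere. TAC WT 4 was also the highest library for Acta1. Without TAC WT 4, the log2 fold change of Acta1 was 3.81 in TAC WT versus Sham WT (edgeR adjusted p = 1.516e-06) and -0.92 in TAC KO versus TAC WT (edgeR adjusted p = 0.00788), so both calls were made without that library. Myl1, a myosin light chain of fast skeletal muscle, was at 30.4 to 40.2 CPM in Sham WT, 73.4 to 120.9 CPM in TAC WT, then 48.0 to 52.2 CPM in TAC KO. Tnnt3, 1 of the 10 summed genes, was at 0.440 to 0.657, 0.862 to 4.12 and 0.447 to 0.707 CPM in the same order. Both Myl1 and Tnnt3 rose in TAC WT versus Sham WT and fell in TAC KO versus TAC WT, so not every gene of this list was confined to TAC WT 4.

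Actc1 encodes the alpha-actin of cardiac muscle (ENSMUSG00000068614.7, chromosome 2 from 114047282 to 114053548). It was the most abundant of the 8 genes in every library, at 15160, 11500, 10060 and 10270 CPM in Sham WT, 13590, 12960, 12960 and 14270 CPM in TAC WT, then 12610, 12420, 12360 and 13510 CPM in TAC KO. Sham WT 1 was higher than every constricted heart and the other 3 sham libraries were lower than every one. The log2 fold changes were 0.19 (SE 0.11, edgeR adjusted p = 0.2351) in TAC WT versus Sham WT, -0.08 (SE 0.11, edgeR adjusted p = 0.6152) in TAC KO versus TAC WT and 0.12 (SE 0.11, edgeR adjusted p = 0.4626) in TAC KO versus Sham WT. Without Sham WT 1, Actc1 was called higher in TAC WT versus Sham WT at 0.35 (edgeR adjusted p = 0.00933) and in TAC KO versus Sham WT at 0.27 (edgeR adjusted p = 0.02554). A noncoding gene on the opposite strand, A530058N18Rik, spans Actc1 and held 1361 counts over all libraries, against 4947891 in Actc1.

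The ratio of Acta1 to Actc1 was computed in each library after dividing both levels by their exon length, 1536 and 1618 bases. Per kb of exon, 1 copy of Acta1 stood against 15.8 to 46.1 copies of Actc1 in Sham WT, against 1.53 to 2.14 in TAC WT and against 2.73 to 4.51 in TAC KO. As a ratio this was 0.0453 ± 0.0174 in Sham WT, 0.566 ± 0.0825 in TAC WT, then 0.296 ± 0.0670 in TAC KO (SD, n = 4). The groups did not overlap in any of the 3 comparisons. On the log2 scale the ratio differed by 3.74 in TAC WT versus Sham WT, by -0.95 in TAC KO versus TAC WT and by 2.78 in TAC KO versus Sham WT. Each of the 3 had an exact two-sided permutation p of 0.0286, the smallest that 4 against 4 libraries can give. Over the 18 such tests run, of 6 ratios and sums in 3 comparisons, the smallest adjusted p was 0.0571, so none of the 18 passed 0.05. For a test at the smallest p, the adjusted p depends on how many of the 18 reach it. It does not measure the size of the difference.

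Stated as a share, Acta1 made up 2.12, 5.97, 4.64 and 4.51% of the sum of Acta1 and Actc1 per kb in Sham WT. It made up 38.0, 31.9, 34.7 and 39.5% in TAC WT, then 18.1, 25.2, 26.8 and 20.6% in TAC KO. The share was therefore highest in every TAC WT library and lowest in every sham library. The plain sum of both genes was 12230 ± 2286 CPM in Sham WT, 20700 ± 1984 CPM in TAC WT, then 16290 ± 709 CPM in TAC KO (SD, n = 4). The sum was higher in TAC WT than in Sham WT by 0.77 on the log2 scale and lower in TAC KO than in TAC WT by 0.34, each with an exact permutation p of 0.0286 (adjusted 0.0571). Between TAC KO and Sham WT it differed by 0.43 with an exact permutation p of 0.0571 (adjusted 0.0935), and the ranges overlapped through Sham WT 1. Once GC and length trends were removed the difference was 0.28 (exact permutation p = 0.1143).

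**Figure D3:**
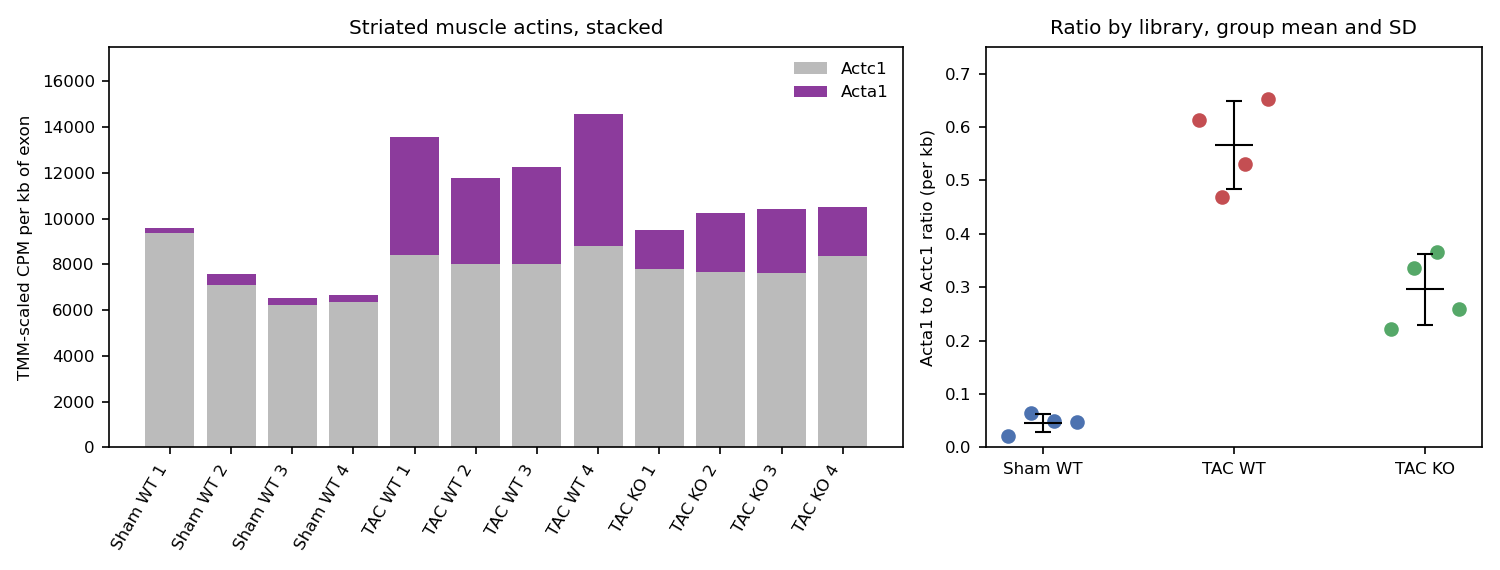
Left, Actc1 (grey) and Acta1 (purple) in TMM-scaled CPM per kb of exon, stacked for each of the 12 libraries. Right, ratio of Acta1 to Actc1 per kb in each library (points) with the group mean and SD (black bars), where Sham WT lies between 0.0217 and 0.0635, TAC KO between 0.222 and 0.366 and TAC WT between 0.468 and 0.652.

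Actb encodes beta-actin, a cytoplasmic actin of nearly all cells and a common reference gene (ENSMUSG00000029580.14, chromosome 5 from 142903115 to 142906754). Its level was 514, 612, 586 and 615 CPM in Sham WT, 726, 562, 788 and 797 CPM in TAC WT, then 501, 517, 621 and 623 CPM in TAC KO. TAC WT 2 lay among the sham and knockout libraries, and the other 3 TAC WT libraries lay above all of them. The log2 fold change was 0.30 in TAC WT versus Sham WT (SE 0.11, edgeR adjusted p = 0.06662), which missed the threshold. It was called without TAC WT 2, at 0.41 (edgeR adjusted p = 0.006581), and by DESeq2 and limma voom with all libraries (adjusted p = 0.03948 and 0.02253). Actb fell by 0.34 on the log2 scale in TAC KO versus TAC WT (SE 0.11, edgeR adjusted p = 0.02729) although the ranges overlapped. That call was lost without TAC KO 1 or 2 or without TAC WT 1, 3 or 4, at an edgeR adjusted p of up to 0.08669.

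Actg1 encodes gamma-actin, the second cytoplasmic actin (ENSMUSG00000062825.15, chromosome 11 from 120345690 to 120348542). Its level was 56.6, 56.9, 58.4 and 57.1 CPM in Sham WT, 73.2, 67.4, 76.7 and 83.2 CPM in TAC WT, then 62.4, 55.4, 69.5 and 68.5 CPM in TAC KO. The sham libraries lay close together, every TAC WT library was above them, and the knockout libraries overlapped both groups. Actg1 rose by 0.39 on the log2 scale in TAC WT versus Sham WT (SE 0.08, edgeR adjusted p = 0.002947) and fell by 0.23 in TAC KO versus TAC WT (SE 0.08, edgeR adjusted p = 0.03423). The second call was lost without the same 5 libraries as for Actb, at an edgeR adjusted p of up to 0.1046.

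Close copies limit how far the level of Actg1 can be read. Of the 50-base stretches of its longest transcript, 56.7% also occur in other genes, mostly processed pseudogenes such as Gm12715, Gm8399 and Actg-ps1. The same share was 14.2% for Actb, 2.22% for Acta1 and 0% for Actc1. Of the 100-base stretches of Actg1, 51.05% were shared. Of 12 pseudogenes that share such stretches with Actg1, 10 share more of them with it than with the other actins. These 10 held 139 counts over all libraries, or 0.543% of those in Actg1. How reads that match several genes were counted is not given in the sources used here. If such reads were dropped, few pseudogene counts would not show how many reads of Actg1 were lost. With that limit, Actb stood 10.1 ± 0.793 times as high as Actg1 per kb in Sham WT, 9.46 ± 0.832 times in TAC WT, then 8.78 ± 0.566 times in TAC KO (SD, n = 4). The ranges of this ratio overlapped in all 3 comparisons, with exact permutation p from 0.0857 to 0.3429. The sum of the 2 cytoplasmic actins was 639 ± 47.2, 793 ± 115 and 629.6 ± 71.4 CPM in the same order, with overlap in all 3 comparisons.

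Actn1 encodes an alpha-actinin of adhesion sites and stress fibres (ENSMUSG00000015143.15, chromosome 12 from 80167547 to 80260371). Its level was 42.5, 42.8, 37.6 and 35.3 CPM in Sham WT, 56.0, 48.9, 52.7 and 71.1 CPM in TAC WT, then 42.6, 44.9, 57.9 and 42.1 CPM in TAC KO. All TAC WT libraries lay above all sham libraries, and of the knockout libraries only TAC KO 3 reached into the range of TAC WT. Actn1 rose by 0.53 on the log2 scale in TAC WT versus Sham WT (SE 0.12, edgeR adjusted p = 0.007374). The log2 fold change of Actn1 in TAC KO versus TAC WT was -0.29 (SE 0.12, edgeR adjusted p = 0.08575). It was called without TAC KO 3, at -0.40 (edgeR adjusted p = 0.01497), or without TAC WT 2, at -0.35 (edgeR adjusted p = 0.04493).

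Actn4 encodes the other alpha-actinin of non-muscle cells, found at cell borders and in the nucleus (ENSMUSG00000054808.15, chromosome 7 from 28893248 to 28962340). Its level was 159, 164, 168 and 166.5 CPM in Sham WT, 212, 170.5, 188 and 202 CPM in TAC WT, then 137, 142, 154 and 156 CPM in TAC KO. The knockout libraries were the lowest of the 3 groups without overlap. Actn4 rose by 0.23 on the log2 scale in TAC WT versus Sham WT (SE 0.07, edgeR adjusted p = 0.03114) and fell by 0.39 in TAC KO versus TAC WT (SE 0.07, edgeR adjusted p = 0.001097). The rise was lost without any 1 of 6 libraries, the 4 of Sham WT, TAC WT 1 and TAC WT 4, while the fall was called in all 17 alternative analyses. Actn4 in TAC KO versus Sham WT was at a log2 fold change of -0.16 (SE 0.07, edgeR adjusted p = 0.1089), below the threshold of a call. The 3′ ends of Actn4 and Capn12 overlap by 316 bases on opposite strands, and Capn12 held 528 counts over all libraries against 65890 in Actn4.

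The ratio of Actn1 to Actn4 per kb was 0.267 ± 0.0303 in Sham WT, 0.328 ± 0.0426 in TAC WT, then 0.352 ± 0.0481 in TAC KO (SD, n = 4). Between TAC KO and Sham WT the ranges did not overlap, and the log2 difference of 0.40 had an exact permutation p of 0.0286 (adjusted 0.0571). In TAC WT versus Sham WT they overlapped (log2 difference 0.29, exact permutation p = 0.0571), and TAC KO and TAC WT overlapped as well (0.10, exact permutation p = 0.4571, and 0.0211 to 0.19 with 1 library left out). The sarcomeric alpha-actinin Actn2, a component of the Z-disc, was far more abundant, at 2501 ± 246, 2784 ± 229 and 2773 ± 64.5 CPM in Sham WT, TAC WT and TAC KO (SD, n = 4), and was not called in any comparison.

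Enah encodes the Mena protein, which lengthens filaments and in heart muscle lies at intercalated discs (ENSMUSG00000022995.16, chromosome 1 from 181896384 to 182019990). Its level was 183, 186, 183 and 179 CPM in Sham WT, 604, 442, 478 and 532.5 CPM in TAC WT, then 197, 296, 262.5 and 241 CPM in TAC KO. All 12 libraries fell in the order Sham WT, TAC KO, TAC WT without overlap. The sham libraries were the tightest of the 3 groups, with a coefficient of variation of 1.57%, against 13.7% in TAC WT, then 16.6% in TAC KO. Enah rose by 1.49 on the log2 scale in TAC WT versus Sham WT (SE 0.11, edgeR adjusted p = 3.199e-06), the 10th of 15477 by p. It fell by 1.05 in TAC KO versus TAC WT (SE 0.11, edgeR adjusted p = 3.813e-05), and in TAC KO versus Sham WT it was higher by 0.45 (SE 0.11, edgeR adjusted p = 0.009591). Among the knockout libraries TAC KO 1 stood lowest and closest to the sham level.

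Vasp encodes the related protein first found in platelets, which binds zyxin and profilin (ENSMUSG00000030403.9, chromosome 7 from 19256929 to 19271817). Its level was 44.8, 47.0, 50.02 and 50.1 CPM in Sham WT, 56.7, 46.5, 56.7 and 58.1 CPM in TAC WT, then 44.4, 47.6, 52.2 and 49.9 CPM in TAC KO. TAC WT 2 lay within the sham range and the other 3 TAC WT libraries lay above every library of both other groups. The log2 fold changes were 0.18 in TAC WT versus Sham WT (SE 0.08, edgeR adjusted p = 0.1106), -0.17 in TAC KO versus TAC WT (SE 0.08, edgeR adjusted p = 0.1104) and 0.02 in TAC KO versus Sham WT (SE 0.08, edgeR adjusted p = 0.8995). Without TAC WT 2 the first and the second were called, at 0.25 (edgeR adjusted p = 0.01486) and -0.24 (edgeR adjusted p = 0.01659).

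The ratio of Enah to Vasp per kb showed how unequally the 2 family members moved. It was 0.466 ± 0.0294 in Sham WT, 1.15 ± 0.113 in TAC WT, then 0.626 ± 0.0935 in TAC KO (SD, n = 4). The groups did not overlap in any of the 3 comparisons, and the differences of 2.47-fold higher in TAC WT versus Sham WT, 1.85-fold lower in TAC KO versus TAC WT and 1.33-fold higher in TAC KO versus Sham WT each had an exact permutation p of 0.0286 (adjusted 0.0571). Once GC and length trends were removed, the log2 difference of this ratio went from -0.89 to -0.47 in TAC KO versus TAC WT and from 0.415 to 0.78 in TAC KO versus Sham WT, each again with an exact permutation p of 0.0286. Per kb of exon, Vasp was the higher of the 2 in every Sham WT and TAC KO library. Enah was the higher in every TAC WT library. This order depends on the length used, and the longest transcript of Enah has 11229 bases. Which of the 2 had more transcripts was not tested. The exon length of Enah, 21452 bases over 16 annotated transcripts, sets the level of this ratio but not its differences between groups as long as the transcripts in use stay the same, which was not tested.

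Levels per kb of exon ordered the 8 genes in a similar way in all 3 groups. The order holds for these exon lengths only, and the lengths of the transcripts in use were not tested. Actc1 led, followed by Acta1 and then Actb in each group, and Actn1 was last. In Sham WT the ranges of Acta1 (314 ± 102 CPM per kb) and Actb (217 ± 17.5 CPM per kb) overlapped, and in TAC WT (4726 ± 896 against 268 ± 40.6 CPM per kb) and TAC KO (2318 ± 474 against 211 ± 24.5 CPM per kb) they did not. Enah stood just above Actn1 in Sham WT at 8.53 ± 0.134 CPM per kb and in TAC KO at 11.6 ± 1.93, and between Actg1 and Vasp in TAC WT at 24.0 ± 3.29 (SD, n = 4). In TAC WT its range overlapped those of its neighbours Actg1 and Vasp, whereas in Sham WT it overlapped neither neighbour.

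The comparison of TAC KO with Sham WT set the constricted knockout hearts against the sham wild type, so that genotype and surgery differ together. Acta1 and Enah rose and the other 6 genes were not called. These 2 of 8 stand beside 12.8% of all tested genes called higher and 27.6% called in either direction. The CPM ranges did not overlap for Acta1, Enah and Actn4, or 3 of the 8, as for 30.7% of all tested genes. Actb was at -0.04, Actg1 at 0.16 and Actn1 at 0.24 on the log2 scale (SE 0.11, 0.08 and 0.12). The median log2 fold change of the 8 genes was 0.14, against 0.0003 over all tested genes.

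Libraries within a group moved several of these genes at once. TAC WT 2 was the lowest TAC WT library for 7 of the 8 genes and TAC WT 4 the highest for 6. TAC KO 1 was the lowest knockout library for 5 genes, Acta1, Actb, Actn4, Enah and Vasp. Sham WT 1 was the lowest sham library for 5 genes and the highest for Actc1. The knockout libraries also stood apart by the GC content and the length of genes. Genes in the top 1 of 5 classes of GC content stood 0.089 to 0.38 above those in the bottom class, by the medians of log2(CPM + 1) centred on each gene's mean, in TAC KO, against -0.11 to -0.04 in Sham WT and -0.14 to -0.05 in TAC WT. The 0.38 was TAC KO 1, and TAC KO 2, 3 and 4 were at 0.1131, 0.0887 and 0.1011. Between the top and bottom classes of length the same measure was -0.25 to -0.14 in TAC KO. It was 0.0094 to 0.15 in Sham WT and -0.02 to 0.19 in TAC WT. With trends of GC content and transcript length removed, the log2 fold changes in TAC KO versus TAC WT were -1.21 for Acta1, -0.82 for Enah, -0.45 for Actn4, -0.45 for Actb and -0.36 for Actg1. All 5 were called there (edgeR adjusted p of 0.0001725 to 0.0096), and Vasp was called too, at -0.35 (edgeR adjusted p = 0.007868).

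Markers of some other cell types differed between the groups as well. Of all tested genes, 19.7% were called in TAC WT versus Sham WT and 33.0% in TAC KO versus TAC WT. The summed level of 12 fibroblast genes was 1788 to 2041 CPM in Sham WT, 2056 to 2655 CPM in TAC WT, then 2481 to 3153 CPM in TAC KO. Of the 12, 6 rose and 2 fell in TAC WT versus Sham WT (66.7% called). In TAC KO versus TAC WT 4 of them rose and none fell (33.3% called). The sum of 15 smooth muscle and pericyte genes was 4045 to 4220, 5077 to 5465 and 4730 to 5135 CPM in the same order. Without Des, its most abundant gene, which cardiomyocytes also express, it was 1789 to 2022, 1558 to 1947 and 1592 to 1802 CPM, an alternative chosen after seeing the data. In this list 2 genes rose, Des and Cspg4, and 2 fell with TAC in wild-type hearts (26.7% called), where the median log2 fold change was -0.09. In TAC KO versus TAC WT 7 of its genes rose and 1 fell (53.3% called). The sum of 13 macrophage and blood genes was 245 to 294, 222 to 332 and 334 to 430 CPM. Of these, 6 rose and none fell in TAC KO versus TAC WT (46.2% called). The sum of 10 endothelial genes was 1831 to 2127, 1939 to 2281 and 1648 to 1976 CPM. None of these was called by edgeR in TAC WT versus Sham WT, where DESeq2 and limma voom each called 1. Kdr and Tek fell in TAC KO versus TAC WT and none rose (20.0% called). The sum of 9 cardiomyocyte genes without Actc1 was 68560 to 74350 CPM in Sham WT, 57320 to 63050 CPM in TAC WT, then 60460 to 64400 CPM in TAC KO. Without Myh6, its most abundant gene, it was 38090 to 42130, 34630 to 36390 and 37490 to 40860 CPM, likewise chosen after seeing the data. There the TAC KO range overlapped that of Sham WT. The sum of 8 platelet and red cell genes was 378.5 to 525, 329 to 705 and 411 to 522 CPM. None of the 8 was called in TAC WT versus Sham WT or in TAC KO versus TAC WT. The cytoplasmic actins, Actn1, Actn4 and Vasp are expressed in these cell types too, and the part of cell composition in their values was not tested.

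A further 119 genes of actin assembly in 9 lists give the setting of the 8, and 117 of them were tested. These lists, too, were chosen with earlier results of these data known. In TAC WT versus Sham WT 31 rose and 4 fell (29.9% called), with a median log2 fold change of 0.14. Between TAC KO and TAC WT 11 rose and 35 fell (39.3% called), with a median of -0.10, and in TAC KO versus Sham WT 29 rose and 16 fell (38.5% called), with a median of 0.04. The shares called among all tested genes are those given above, 19.7%, 33.0% and 27.6%. The share called of each list below is to be read beside these. These counts come from the main fit, and some calls in TAC KO versus TAC WT were lost with GC and length trends removed. Among the genes of smallest p in each list, Diaph2, Fmnl2, Actr2 and Abi2 were then no longer called lower. Twf2 and Coro1b were then no longer called higher.

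Among the other actins, the smooth muscle isoform Acta2 was not called in any comparison, at 194.5 ± 25.4, 180.0 ± 63.7 and 166 ± 31.7 CPM in Sham WT, TAC WT and TAC KO (SD, n = 4). Actg2, the enteric smooth muscle isoform, was scarce in every group and rose in TAC KO versus TAC WT from 0.981 ± 0.245 to 2.47 ± 0.479 CPM (log2 1.35, SE 0.26, edgeR adjusted p = 0.001572). Of 15 tested formins and leiomodins, which start new filaments, 3 rose and 1 fell in TAC WT versus Sham WT (26.7% called). The leiomodin of the sarcomere Lmod2 rose there by 0.40 and the formin Fmn1 by 1.17, the latter from 0.809 to 1.83 CPM. Of this list, 1 gene rose and 3 fell in TAC KO versus TAC WT (26.7% called), where Daam1 fell by 0.39 on the log2 scale.

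The Arp2/3 complex starts filament branches. In TAC WT versus Sham WT 4 of its 10 genes rose and none fell (40.0% called). Among them Arpc3 rose by 0.32 and Arpc5l by 0.28. In TAC KO versus TAC WT 1 of the 10 rose and 1 fell (20.0% called). Of 14 genes that activate this complex, including the WAVE complex, none was called by edgeR in TAC WT versus Sham WT, where 5 had an unadjusted p under 0.05, DESeq2 called 3 and limma voom 5. Between TAC KO and TAC WT 2 of them rose and 6 fell (57.1% called). There Wasf3 fell from 2.32 ± 0.246 to 0.990 ± 0.368 CPM (log2 -1.24, edgeR adjusted p = 0.001143), Abi1 fell by 0.50 on the log2 scale and Washc1 of the WASH complex rose by 0.40, or by 0.26 with GC and length trends removed.

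Proteins that bind actin monomers or sever filaments were counted in a list of 16 genes. Of these, 5 rose and none fell in TAC WT versus Sham WT (31.2% called). Wdr1, a cofactor of cofilin, rose there by 0.53, the muscle cofilin Cfl2 by 0.40 and the twinfilin Twf2 by 0.33. The knockout comparison with TAC WT had 3 higher and 4 lower (43.8% called), with Coro1c at -0.51 and Twf1 at -0.41. Of 11 capping genes, the plus-end capping protein Capg rose by 0.85 in TAC WT versus Sham WT while 3 fell, among them Tmod4 and Add3. That is 36.4% called, and in TAC KO versus TAC WT 1 rose and 1 fell (18.2% called). Tmod4, a tropomodulin of minus ends, rose by 0.77 in TAC KO versus TAC WT and Tmod3 fell by 0.47, or by 0.30 with GC and length trends removed.

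Crosslinking and bundling proteins and the partners of Ena/VASP proteins held the most genes called in TAC WT versus Sham WT. There 7 of 16 and 7 of 15 were higher and none lower (43.8% and 46.7% called). Synpo2l, a Z-disc protein, rose from 192 ± 15.4 to 820.3 ± 270.7 CPM (log2 2.09) and was at 328 ± 61.9 CPM in TAC KO (log2 -1.32 against TAC WT). Filamin C, Flnc, rose by 1.15 and fell by 0.65 in TAC KO versus TAC WT. Xirp1 and Xirp2 encode Xin repeat proteins of the intercalated disc, and the Xirp1 product is known to bind Mena and Vasp. Xirp1 was at 285 ± 27.1, 762 ± 71.3 and 385 ± 90.7 CPM and Xirp2 at 618 ± 36.8, 2277 ± 541 and 1074 ± 232 CPM in Sham WT, TAC WT and TAC KO (SD, n = 4). Both rose in TAC WT versus Sham WT and both fell in TAC KO versus TAC WT, by 0.98 and 1.08 on the log2 scale. Nexn, a Z-disc filament binder, was at 918 ± 56.3, 1145 ± 36.1 and 568 ± 70.9 CPM and fell by 1.01 in TAC KO versus TAC WT (edgeR adjusted p = 5.767e-06) and by 0.69 in TAC KO versus Sham WT (edgeR adjusted p = 8.675e-05). Zyx, whose product zyxin recruits Ena/VASP proteins to stress fibres, rose by 0.50 in TAC WT versus Sham WT and fell by 0.31 in TAC KO versus TAC WT. Of the crosslinking genes 7 of 16 fell and 1 rose in TAC KO versus TAC WT, and of the partners 5 of 15 fell and none rose.

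Of 17 genes that regulate SRF and its actin-sensing cofactors, 4 rose and none fell in TAC WT versus Sham WT (23.5% called). Abra, an actin-binding activator of SRF also called STARS, rose from 71.2 ± 5.05 to 346.5 ± 92.3 CPM (log2 2.28, edgeR adjusted p = 1.339e-05) and Mical2 rose by 0.65. Srf itself had log2 fold changes of 0.25 (SE 0.09, edgeR adjusted p = 0.05215) in TAC WT versus Sham WT and -0.24 (SE 0.08, edgeR adjusted p = 0.04578) in TAC KO versus TAC WT. The call of Srf was lost in 7 of 17 alternatives, at an edgeR adjusted p of up to 0.135. It was lost without any 1 of 5 libraries, TAC KO 1, 2 and 3 and TAC WT 1 and 2. It was also lost with no low-count filter and with only the compared groups. Of the 17, 8 fell and 1 rose in TAC KO versus TAC WT (52.9% called). Abra fell there by 1.36. The cofactor genes Mrtfa and Mrtfb were not called in any comparison.

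**Figure D4:**
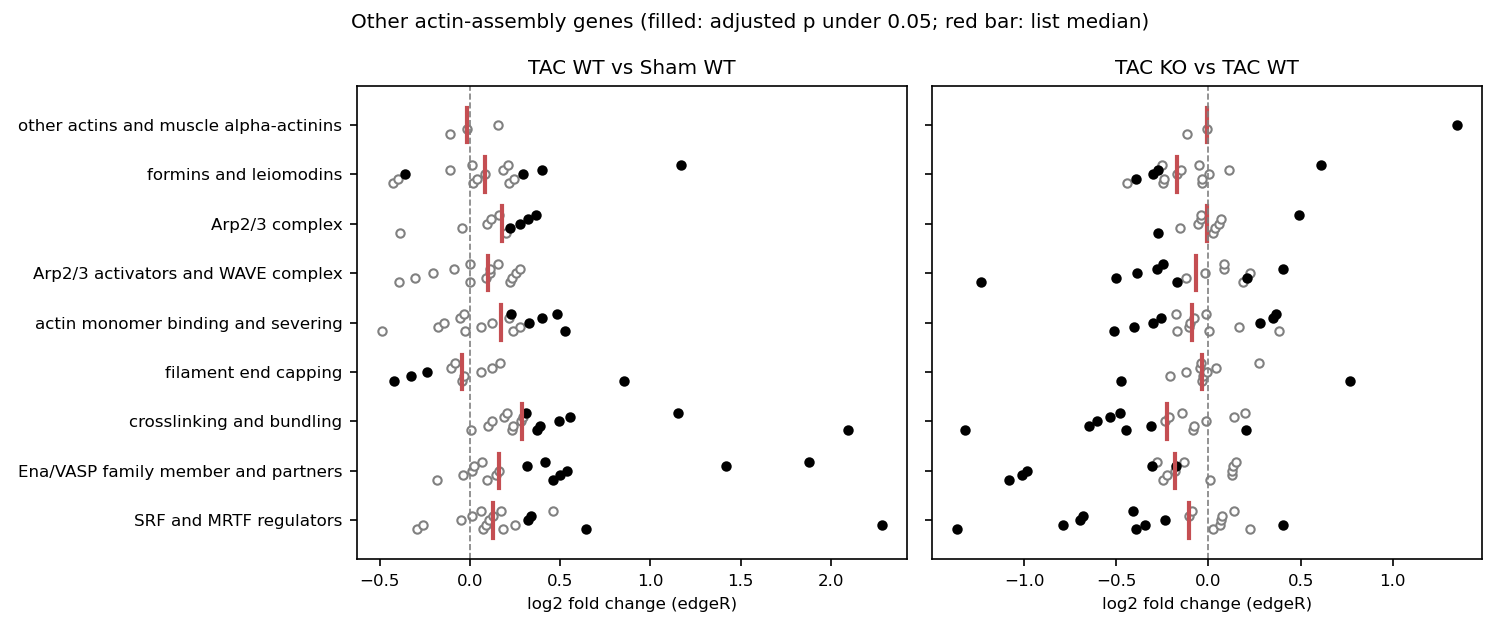
Log2 fold changes from the edgeR fit for the tested genes of 9 lists of actin assembly (points, filled where the adjusted p is under 0.05), with the median of each list (red bar), in TAC WT versus Sham WT and in TAC KO versus TAC WT. Of 117 genes, 31 rose and 4 fell in the first comparison and 11 rose and 35 fell in the second.

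The genes whose profile over the 12 libraries was most like each of the 8 were found among 11973 genes by the root mean square difference of log2(CPM + 1), each gene centred on its mean. For Acta1 these were the natriuretic peptide gene Nppa (0.607), Ltbp2 (0.659) and Nppb (0.702), against a median of 1.71 over all genes. For Enah they were Xirp1 (0.144), Slc22a4 (0.159) and Nuak1 (0.161), against a median of 0.655. For Actc1 they were Fez2, Fbl and Actn2 (0.099 to 0.100, median 0.236), and for Actn1 they were Zyx, Eif1a and Csk (0.100 to 0.121, median 0.313). For Actn4 they were Knop1, Trps1 and Twf1 (0.0449 to 0.0642, median 0.239), for Actb Rrp15, Tpm3 and Pdia4 (0.0849 to 0.0930, median 0.266), for Actg1 Ppp1r18, Cybc1 and Npdc1 (0.0618 to 0.0690, median 0.244) and for Vasp Ptma, Stx1a and Acsl5 (0.0466 to 0.0580, median 0.203). The libraries are shared by all genes, and genes that vary little lie close to each other on this measure.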

How the data were processed

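The deposited files hold whole-number counts of reads per gene, 1 file per library, with no normalisation visible in the values. The submitters' processing notes name STAR and featureCounts 1.6.4, Trim Galore 0.5.0, StringTie 1.3.5 and DESeq2, the quality tools FastQC 0.11.8 and MultiQC 1.7, bcl2fastq, and the build GRCm38. The library kit keeps strand, per the labels' protocols, and the strand setting of the counting and the annotation release are not given in the sources used here. Version suffixes were dropped before identifiers were matched to GENCODE M21, which named 54079 of 54146 records, and replicates were numbered in accession order.

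Counts were tested with edgeR 4.0.16 in R 4.3.3 (quasi-likelihood F-test, TMM scaling, filterByExpr, common biological coefficient of variation 0.113). The fit was tested on simulated data. The check that it had to pass covered TAC WT versus Sham WT and TAC KO versus TAC WT, in simulated data without a GC trend. Ratios and sums were compared by exact permutation of libraries. The alternatives were DESeq2 1.42.0, limma 3.58.1 voom with quality weights, total-count and RLE scaling, a filter of 1 CPM in 4 libraries or none, a fit of only the groups compared, sva 3.50.0 with 1 surrogate variable, GC and length trends removed (splines with 5 degrees of freedom), and each library left out. For ratios and sums they were GC and length trends removed, RLE or total-count scaling, pseudogene counts or 1 count added, and each library left out.

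The 8 genes, the lists and the tests were chosen with earlier results of these data known. Besides the 8, the text names genes from up to 4 of smallest p per list and comparison and the 3 most similar profiles per gene. Srf, Mrtfa, Mrtfb, the marker genes and overlapping genes were named after their values were seen. The SD and SE of genes with few counts include counting error.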

Additional observations from a re-analysis of the deposited data

Results flagged for a closer look

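Vasp in TAC WT 2 was at 46.48 CPM, apart from the other 3 TAC WT libraries at 56.67 to 58.09 CPM. Its gap to the nearest library was 0.877 of the range of the group, above the 95% critical value of Dixon's test for 4 samples. It was the only one of 42 groups of 4 values examined, and chance marks about 1 group in 20. TAC WT 2 was also the lowest TAC WT library for 7 of the 8 genes. Without it, Vasp was called in TAC WT versus Sham WT and in TAC KO versus TAC WT, with the values given above.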

How the results depend on the processing

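Acta1 and Enah kept their direction and call in all 17 alternatives of all 3 comparisons, as did Actg1 and Actn1 in TAC WT versus Sham WT and Actn4 in TAC KO versus TAC WT. The count of the 8 genes called in TAC KO versus TAC WT was 5, and 3 with 1 surrogate variable or with the compared groups alone. With 1 library left out it ran from 3 to 7, against 4 to 7 in TAC WT versus Sham WT and 2 to 3 in TAC KO versus Sham WT. Actb was called in TAC WT versus Sham WT in 5 of 17 alternatives. In TAC KO versus TAC WT Actb lost its call in 7 and Actg1 in 8, and the rise of Actn4 with TAC was lost in 8. Among the 8 genes and their ratios and sums, direction turned only in TAC KO versus Sham WT. There, with GC and length trends removed, Actc1 was at -0.0227 and Vasp at -0.16 (log2). With 1 library left out Vasp ran from -0.0188 to 0.0642, turning without Sham WT 1 or TAC KO 3, and Actb ran from -0.0894 to 0.0217, turning without TAC KO 1 or TAC KO 2. The sum of Actb and Actg1 ran from -0.0783 to 0.0261, turning without Sham WT 4, TAC KO 1 or TAC KO 2. Diaph2 in TAC KO versus TAC WT was at 0.0068 with GC and length trends removed. The sum of Acta1 and Actc1 in TAC KO versus Sham WT was 0.45 with total-count scaling (exact permutation p = 0.0286), 0.28 with GC and length trends removed (exact permutation p = 0.1143) and 0.36 to 0.55 with 1 library left out. Leaving out 1 library gave 0.21 to 0.35 for the ratio of Actn1 to Actn4 and 0.25 to 0.41 for the sum of Actb and Actg1 in TAC WT versus Sham WT, with -0.1462 to -0.031 for the ratio of Actb to Actg1. It gave -0.1668 to -0.0584 for the ratio of Actb to Actg1 and -0.44 to -0.27 for the sum of Actb and Actg1 in TAC KO versus TAC WT, and -0.25 to -0.15 for the ratio of Actb to Actg1 in TAC KO versus Sham WT. With 3 against 4 libraries the smallest exact permutation p is 0.0571. The cause of these changes was not tested. No paired analysis was possible because the labels give no replicate numbers.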
